A study of Mus musculus with 4 samples.

Results

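Plasmacytoid dendritic cells were described in single-cell RNA-seq of CD45+ leukocytes from the salivary glands of 20-day-old mice, with Csf2-/- set against Csf2+/- animals. Csf2 encodes GM-CSF, a myeloid growth factor. The cells were taken by their unique molecular identifiers (UMIs, each standing for 1 captured transcript). A barcode belonged if it had at least 2 UMIs of Siglech, at least 2 of Bst2 and at least 1 of Ccr9, Cox6a2, Klk1 or Pacsin1 together, no more than 10 of C1qa, C1qb and C1qc together, and 0 of Cd3d, Cd3e and Cd3g. This gate held 94 of 37644 barcodes that passed the quality limits. It held 26 of 9752 in the Csf2-/- female library, 25 of 9575 in the Csf2-/- male library, 27 of 9567 in the Csf2+/- female library and 16 of 8750 in the Csf2+/- male library.

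Each genotype was measured in 1 female and 1 male library, and each library pooled the glands of 2 mice. The strain is labelled C56BL/6, and every animal carried at least 1 Csf2 null allele, since the comparison group was heterozygous and not wild type. Leukocytes were enriched with CD45 microbeads and then sorted as CD45+, with no gate for dendritic cells. The title of the series names a gland macrophage population and GM-CSF from group 2 innate lymphoid cells, and the comparison here asks how plasmacytoid dendritic cells of the same glands looked with and without an intact Csf2 allele.

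Plasmacytoid dendritic cells are rare leukocytes that develop in the bone marrow under FLT3 ligand and the transcription factor TCF4. They detect viral RNA and DNA in endosomes through TLR7 and TLR9, and when triggered they secrete large amounts of type I interferon. They look like plasma cells, with a large endoplasmic reticulum, and in mice they carry SIGLECH, BST2 (the antigen of the PDCA-1 antibody), B220 and LY6C, and CCR9, a homing receptor for the chemokine CCL25. GM-CSF and IL-3 signal through a shared beta chain, and GM-CSF is known to favour conventional over plasmacytoid dendritic cells in culture.

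The promoters of 3 genes that chose the cells are shown because they hold an E box, the kind of site that TCF4 and other E proteins bind, and were picked for it. The sequences are RefSeq's, on GRCm38.p6, each covering the 250 bases before the annotated start, written 5′ to 3′ on the gene's strand. The deposited counts were made on GRCm39. Capitals mark matches on either strand to 4 motifs. These are the E boxes CAGGTG and CAGCTG, the ETS-family core GAGGAA, and a spaced repeat of GAAA and GAAA with any 2 bases between, the core of interferon-stimulated elements.
Siglech, chr7:55767934-55768183, plus strand: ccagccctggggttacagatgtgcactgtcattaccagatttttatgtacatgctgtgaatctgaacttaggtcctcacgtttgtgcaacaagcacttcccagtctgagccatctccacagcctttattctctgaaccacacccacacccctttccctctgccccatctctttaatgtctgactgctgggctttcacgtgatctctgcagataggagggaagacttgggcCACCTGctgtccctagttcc
Bst2, chr8:71537473-71537722, minus strand: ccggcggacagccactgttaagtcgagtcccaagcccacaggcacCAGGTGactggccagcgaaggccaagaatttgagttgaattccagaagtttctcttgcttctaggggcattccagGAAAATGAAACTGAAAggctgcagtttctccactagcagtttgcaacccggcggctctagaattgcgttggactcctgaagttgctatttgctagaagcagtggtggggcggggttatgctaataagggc
Ccr9, chr9:123766961-123767210, plus strand: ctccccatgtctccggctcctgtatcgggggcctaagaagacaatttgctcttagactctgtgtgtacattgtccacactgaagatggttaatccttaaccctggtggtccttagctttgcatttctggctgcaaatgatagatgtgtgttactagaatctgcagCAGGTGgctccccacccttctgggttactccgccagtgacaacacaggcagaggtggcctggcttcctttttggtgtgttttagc
CAGGTG lay 20 bases upstream of the Siglech start, where the shown strand reads CACCTG, 205 bases upstream of Bst2 and 85 bases upstream of Ccr9. Bst2 also held the GAAA repeat at 130 and 124 bases upstream, in 2 matches that overlap each other. Among the other genes of the gate, Klk1, C1qb, Cd3d and Cd3g also held CAGGTG, while Pacsin1 held none of the 4 motifs. Of all 32817 promoters of the same length, 17.2% held CAGGTG, 13.0% held CAGCTG, 23.3% held GAGGAA and 2.97% held the GAAA repeat. Of the 25 genes that led the cells outside the gate, 17 had an entry, with 23 promoters. CAGGTG was in 6 of those 23 (26.1%), CAGCTG in 3 (13.0%), GAGGAA in 5 (21.7%) and the GAAA repeat in 2 (8.70%). These matches describe letters in a window, not binding.

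The 4 libraries held 111981802 to 122366588 UMIs each. Over all kept barcodes Csf2 stood at 0.929 and 1.10 CPM (UMIs of the gene per 1000000 UMIs) in the Csf2-/- female and male libraries, against 16.7 and 18.1 CPM in the Csf2+/- female and male libraries, and the plasmacytoid cells themselves held no Csf2 UMI. That is 0 of 94 cells, which allows a share of up to 3.19% (3 counts of the total; the upper limit of the exact 95% interval is 3.85%). All 4 libraries matched their sex labels. Y-linked genes stood at 198 CPM in each male library, 3.41 CPM in the Csf2-/- female and 0.0495 CPM in the Csf2+/- female library. The source of the Y-linked UMIs in the Csf2-/- female library was not tested. Pairs of libraries shared 20 to 38 barcode sequences, none of them among the gated cells. The doublet caller Scrublet marked 6 of the 94 cells, with 0 in the Csf2-/- female, 3 in the Csf2-/- male, 2 in the Csf2+/- female and 1 in the Csf2+/- male library. Its own threshold marked 13.0% of barcodes in the Csf2-/- male library and 0%, 0% and 0.0107% in the others, where the expected share of barcodes with the highest scores was marked instead.

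The gated cells had a median of 11711.5 UMIs and 3378.5 genes per cell, with a range of 4911 to 31806 UMIs, against a median of 18946 UMIs in cDC1 (conventional type 1 dendritic cells), 15601 in cDC2 (type 2), 5089 in B cells and 9703 in the kept barcodes outside all gates. Library medians were 11245.5 and 11707 UMIs in the Csf2-/- female and male libraries, and 12127 and 11951 in the Csf2+/- female and male libraries. Summed per library, the cells gave 280638 and 324117 UMIs from the Csf2-/- animals, against 341006 and 188400 UMIs from the Csf2+/- animals. These sums are the depth behind every level below, and the counting intervals below cover counting error only.

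Of the label's 5 markers, 4 also chose the cells, so their levels describe the gate, and only Tcf4 is a separate check. Siglech had a median of 8.5 UMIs per cell (range 2 to 22) and 750 CPM in the gated cells, against 2.17 CPM in all other kept barcodes. Bst2 had a median of 46 UMIs (range 13 to 80) and 3739 against 241 CPM. Ccr9 had a UMI in 90 of 94 cells and 823 against 3.86 CPM, and Cox6a2, a muscle-type subunit of cytochrome c oxidase, in 86 of 94 cells and 1273 against 19.1 CPM. Tcf4, which the gate did not use, had a UMI in all 94 cells and 2822 against 138 CPM. All 5 markers were found together in 84 of 94 cells (89.4%, exact 95% interval 81.3 to 94.8%). Klk1 was the weakest part of the gate. This kallikrein had a UMI in 56 of 94 cells, and it had one in 10.8 to 19.9% of the other cells of each library, but no cell was gated through Klk1 alone.

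The cells also stayed together when all kept barcodes were clustered. The genes of the gate were not left out of that clustering, so it is not independent of the gate. Leiden clustering of all kept barcodes at resolution 1.5 gave 42 clusters, and a single cluster of 160 cells held 90 of the 94. At resolution 0.8 a cluster of 153 cells held 90. The 70 cells of the first cluster that lay outside the gate comprised 35 with no Siglech UMI, 14 with a Cd3 UMI and 4 with more than 10 C1q UMIs, among other failures, and 16 of the 70 were Scrublet-marked. Those 35 without Siglech averaged 1250 CPM of Tcf4, 259 CPM of Gria3, 316 CPM of Il1r2, a decoy receptor for IL-1, and 85.7 CPM of Ccr6.

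The edges of the gate were uneven. The 7 members with only 2 or 3 Siglech UMIs had 2224 CPM of Tcf4, 1209 CPM of Ly6d and 598 CPM of Grm8, against 1089, 173 and 38.1 CPM in 18 barcodes that missed the gate with 1 Siglech UMI. The 11 barcodes excluded only by a Cd3 UMI were close to the members, with 2283 CPM of Tcf4 and 2511 CPM of Ly6d, and all 11 lay in the same cluster. The 25 excluded by C1q had 310 CPM of Tcf4 and 12479 CPM of Apoe, a macrophage gene. These values only describe the limits of the rule.

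Plasmacytoid dendritic cells were rare in each library. Their share of kept barcodes was 0.267% (exact 95% interval 0.174 to 0.390%) in the Csf2-/- female library and 0.261% (0.169 to 0.385%) in the Csf2-/- male library. It was 0.282% (0.186 to 0.410%) in the Csf2+/- female library and 0.183% (0.105 to 0.297%) in the Csf2+/- male library. The Csf2+/- libraries held both the highest and the lowest share, so the genotypes overlapped, and all 4 intervals overlapped. The mean was 0.264 ± 0.0039% in Csf2-/- and 0.233 ± 0.0703% in Csf2+/- glands (SD, n = 2), a log2 ratio of 0.18. The exact 2-sided permutation test gave p = 1, where the smallest p that 2 against 2 libraries can give is 0.333. Of the dendritic cells gated in total, with 509 cDC1 and 1363 cDC2, the plasmacytoid cells were 6.39% and 4.66% in the Csf2-/- female and male libraries, against 5.07% and 3.27% in the Csf2+/- female and male libraries.

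**Figure D1:**
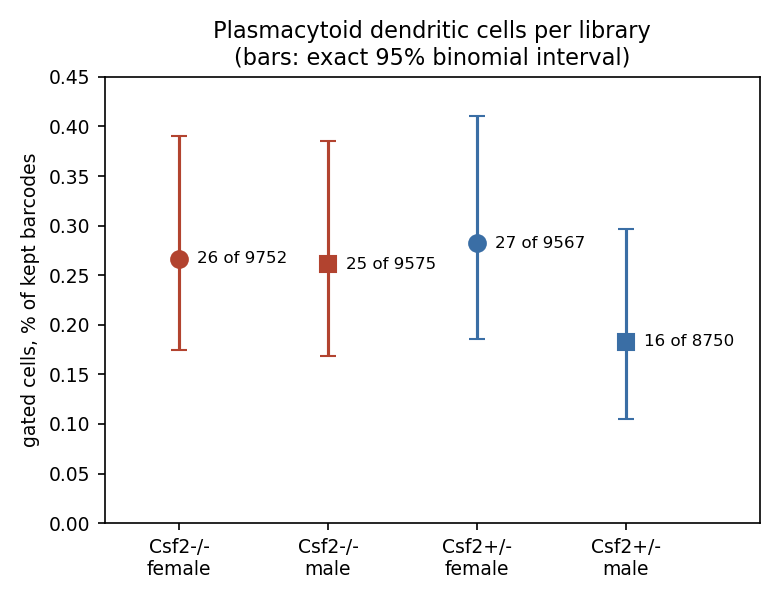
Share of kept barcodes inside the plasmacytoid gate, in percent, for each of the 4 libraries (red, Csf2-/-; blue, Csf2+/-; circles, female; squares, male), with exact 95% binomial intervals and the cell numbers beside each point. The Csf2+/- male library was lowest at 0.183% and the other libraries lay between 0.261 and 0.282%.

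The levels that follow are CPM of the UMIs summed over cells, computed here. They set the gated cells beside all other kept barcodes, or beside gated cDC1, cDC2, B cells (638) and Ly6c2 monocytes (514). The cells were picked by their counts, so these comparisons carry no test. Of 8711 genes that reached 10 CPM in the gated or the other cells, 6.93% were at least 2-fold higher in the gated cells in all 4 libraries and 11.2% at least 2-fold lower. Counts for gene groups are given against those 2 percentages and against the number of the group that reached the same level.

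Some transcription factors of the lineage stood high. Of 14 listed factors, all past the level, 6 were at least 2-fold higher in every library, 0 were lower and 8 were neither. Irf8, which drives plasmacytoid and cDC1 development, had 2068 CPM in the gated cells, 1280 CPM in cDC1, 32.8 CPM in cDC2 and 213 CPM in all others. Runx2, which supports exit from the bone marrow, had 1181 against 63.2 CPM in all others. Bcl11a, upstream of Tcf4, had 403 CPM, with 207 CPM in B cells and 13.7 CPM in all others. Spib, an ETS factor, had 245 CPM, with 174 CPM in B cells and 3.86 CPM in all others. Zeb2 had 724 against 550 CPM in all others and was not among the 6. Nor were Ets1, at 197 against 297 CPM, and Nfil3, at 52.0 against 57.7 CPM, which lay below all others.

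Values by library follow for 3 of them. Tcf4 had 3050 and 2487 CPM in the Csf2-/- female and male libraries, against 3050 and 2649 CPM in the Csf2+/- libraries. Irf8 had 2238 and 2123 CPM in Csf2-/-, against 1927 and 1980 CPM in Csf2+/- cells, and Runx2 1247 and 1163 against 1176 and 1125 CPM. The groups overlapped for Tcf4 and Runx2, and for Irf8 they did not, but none of the 3 passed the genotype test described below.

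Genes of the conventional lineages were split. Of 17 conventional dendritic genes, 16 reached the level, 5 were at least 2-fold lower than in all others in every library, 2 were higher and 9 were neither. Id2, an inhibitor of E proteins such as TCF4, had 52.0 CPM in the gated cells, 744 CPM in cDC1, 204 CPM in cDC2 and 433 CPM in all others. Batf3, needed for cDC1, had 5.29 against 37.8 CPM in all others, and Xcr1, the cDC1 chemokine receptor, had no UMI. The 2 higher genes were Irf4, a factor of cDC2 and B cells, at 148 against 23.0 CPM, and Clec9a, a C-type lectin of cDC1. Clec9a had 58.2 CPM and a UMI in 31 of 94 cells, with 285 CPM in cDC1 and 8.72 CPM in all others. Cd209a, a lectin of cDC2, had 168 CPM and a UMI in 49 cells, with 1091 CPM in cDC2 and 80.9 CPM in all others. The cDC1 gate required Xcr1 and Clec9a UMIs and the cDC2 gate Cd209a UMIs, so these genes are raised there by construction.

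Surface and secreted genes of the lineage were high. All 31 listed genes reached the level and 30 were at least 2-fold higher in every library, Il21r being the exception, but the list was drawn up from known plasmacytoid genes with these data already seen. Ly6d, a surface antigen of early B and plasmacytoid progenitors, had 2697 CPM, with 2328 CPM in B cells and 28.4 CPM in all others. Ly6c2 had 2167 against 86.6 CPM, Plac8 2757 against 210 CPM and Rnase6, an antimicrobial ribonuclease, 778 against 43.1 CPM. Plac8 was higher still in Ly6c2 monocytes, at 3988 CPM, and had 1083 CPM in B cells. Ly6c2 had 1158 CPM in those monocytes, which were gated on it. Lair1, an inhibitory collagen receptor, had 365 against 32.6 CPM, and Klra17, a Ly49-family receptor, 123 against 3.03 CPM. Cd300c had 359 against 0.824 CPM and a UMI in 89 of 94 cells, with 7.06 CPM in cDC1.

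Transcripts of T cell co-receptors were present in cells that the gate had chosen for having no Cd3 UMI. Cd4 had a UMI in 57 of 94 cells, and Cd8a or Cd8b1 in 70 (74.5%, exact 95% interval 64.4 to 82.9%), with both kinds in 43. In the same cells Cd8b1 had 342 CPM, against 13.0 CPM in all others and 0.196 CPM in cDC1. Cd8a had 191 against 12.5 CPM, Cd4 130 against 6.08 CPM and Lag3, a receptor for MHC class II, 75.8 against 3.22 CPM. Cd4 had 139 and 108 CPM in the Csf2-/- female and male libraries, against 93.8 and 218 CPM in the Csf2+/- libraries, and the genotypes overlapped.

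The 25 genes with the highest ratio to all others, outside the gate and among genes of at least 50 CPM, included genes best known from nerve and muscle. Grm8, a metabotropic glutamate receptor, had 890 against 0.523 CPM, and Gria3, an ionotropic glutamate receptor subunit, 242 against 3.07 CPM. Muscle genes included Myh13, a myosin heavy chain, at 55.6 against 0.0196 CPM, and Atp2a1, the fast-muscle calcium pump, at 127 against 0.843 CPM. Channel and adhesion genes included Cacna1e at 287 against 2.10 CPM and Lrp8, a reelin receptor, at 306 against 4.06 CPM. Havcr1, encoding TIM-1, had 106 against 0.466 CPM, and Lefty1, a TGF-beta family inhibitor, 131 against 1.05 CPM. Dntt, Gm21762, Cd300c, Foxr1, Calm4, Sh3bgr, Gm12253, Adam11, Pdzd4, Ly6d, Pir, Klk1b27, Spib, Smim5, Ppm1e and Sct were also among the 25. The ratios ran from 57.2 for Sct to 2833 for Myh13. Sct reached 50 CPM only through the Csf2-/- cells, with a mean of 97.3 CPM against 2.65 CPM in Csf2+/- cells, and 3 cells held 86.9% of its UMIs.

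**Figure D2:**
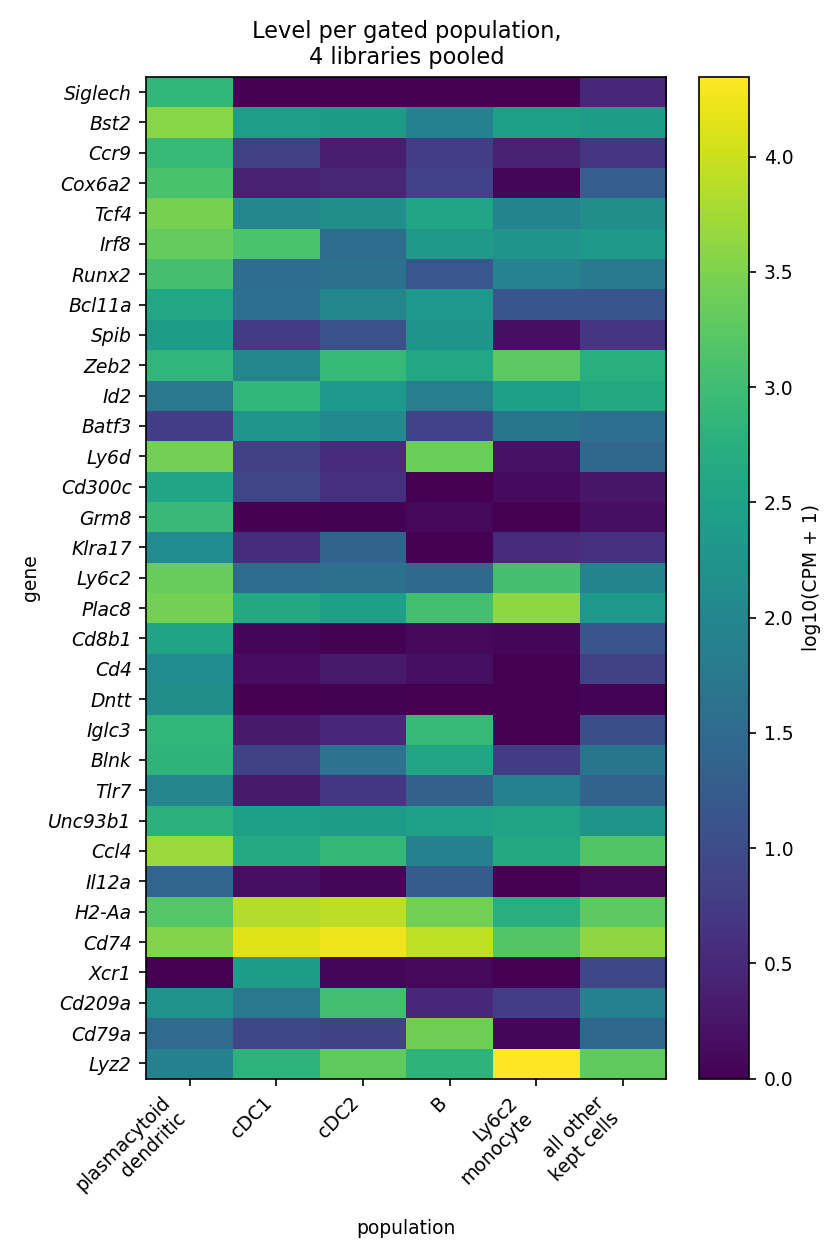
Pooled level of selected genes, as log10 of CPM plus 1 by colour, in the plasmacytoid gate, the 4 comparison gates and all other kept cells, with the 4 libraries pooled. Siglech is at 0 in the comparison gates by construction. H2-Aa in cDC2, and any other gene that chose a comparison gate, is raised in that column by construction. Ly6d, Bcl11a, Spib, Iglc3 and Blnk are high in both the plasmacytoid and the B columns, and H2-Aa and Cd74 are higher in both conventional dendritic columns.

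Genes of the lymphoid lineage were present in part. Of 18 listed, 13 reached the level, 6 were at least 2-fold higher in every library and 1 was lower. Dntt, the terminal transferase of antigen receptor recombination, had 138 CPM and a UMI in 58 of 94 cells, with 0 CPM in B cells and cDC1 and a UMI in 0.0612% of all other cells. Rag1 and Rag2, the recombinase genes, had no UMI. Iglc3, a lambda light chain constant gene, had 741 CPM and a UMI in 82 cells, with 823 CPM in B cells and 10.1 CPM in all others. Blnk, an adaptor of B cell receptor signalling, had 674 CPM, with 359 CPM in B cells, and Fcrla 265 CPM, with 437 CPM in B cells. Ighm had 800 CPM, against 6160 CPM in B cells and 205 CPM in all others. The B cell receptor chain Cd79a had 31.7 CPM, and its 36 UMIs came from 2 cells of the Csf2-/- female library with 19 and 17 UMIs.

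Receptors and adaptors of nucleic acid sensing were present, and interferon transcripts were close to absent. Of 25 sensing genes, 21 reached the level, 6 were at least 2-fold higher and 4 lower in every library. Tlr7 had 89.1 and 98.7 CPM in the Csf2-/- female and male libraries, against 76.3 and 122 CPM in the Csf2+/- libraries, and a UMI in 58 of 94 cells, with the genotypes overlapping. Unc93b1, which carries these receptors to endosomes, had 617 against 174 CPM in all others, Slc15a4 115 against 23.6 CPM and Tasl, which recruits IRF5 to SLC15A4, 96.1 against 17.5 CPM. Tlr12 had 34.4 against 4.30 CPM. Tlr9 had 3 UMIs in all, and Tlr3 and Tlr8 none. Tlr9 stood at 2.65 CPM in the gated cells, 2.55 CPM in B cells, 1.67 CPM in cDC1 and 0.804 CPM in all others. It was close to the floor in each, so its low count does not show that the gated cells lack it.

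Of 20 type I and III interferon genes in the annotation, 19 had no UMI in the gated cells. A single cell, from the Csf2-/- female library, carried Ifnk (1 of 94 cells, 1.06%, exact 95% interval 0.0269 to 5.79%). Of 30 interferon-response genes past the level, 4 were higher and 6 lower in every library. Ifnar2, a chain of the type I interferon receptor, had 250 against 86.7 CPM in all others. Irf7, the interferon-inducible factor that amplifies interferon transcription, had 160 against 38.8 CPM. Its level was 189 CPM in Ly6c2 monocytes and 130 CPM in cDC1, so it was not particular to the gated cells. Ly6e had 2207 against 802 CPM, Trim30a 264 against 87.6 CPM and Ifi44 30.9 against 2.03 CPM.

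Of 16 cytokine and effector genes past the level, 2 were higher and 9 lower in every library. The higher ones were Ccl4 and Il12a. Ccl4, an inflammatory chemokine, had 6407 and 4070 CPM in the Csf2-/- female and male libraries, against 5317 and 3832 CPM in the Csf2+/- libraries, and a UMI in 93 of 94 cells, with 1494 CPM in all others. Ccl3, its neighbour in the same chemokine family, was lower than in all others, at 109 against 327 CPM. Il12a, the p35 chain of IL-12, had 25.6 CPM and a UMI in 20 cells, with 17.3 CPM in B cells and 0.292 CPM in all others. Its partner Il12b had no UMI, nor did Il6, Il10, Il15, Cxcl9, Gzmb, Ido1 and Ido2. For each of these, 0 of 94 cells allows a share of cells with a UMI of up to 3.19%.

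Most homing receptors were neither 2-fold higher nor 2-fold lower in every library. Of 16 of 18 that reached the level, 2 were higher, 3 lower and 11 neither. Itga4, a chain of the VCAM-1 receptor and one of the higher genes, had 439 against 181 CPM in all others, and Selplg, encoding the P-selectin ligand, 503 against 280 CPM. Cxcr3 had 52.0 against 27.2 CPM and Cxcr4 112 against 106 CPM. Ccr7, which guides dendritic cells to lymph nodes, had 12.3 CPM.

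MHC class II was present below the level of other antigen-presenting cells. H2-Aa had 1576 CPM, against 7128 CPM in cDC1, 8301 CPM in cDC2 and 2649 CPM in B cells. The cDC2 gate required MHC class II UMIs, so the cDC2 level is raised by construction. Its invariant chain Cd74 had 3485 CPM, against 13400, 17420 and 8409 CPM in the same order of cells. Cd86, a costimulatory ligand, had 87.3 against 312 CPM in all others, and Cd83 92.6 against 335 CPM. H2-Oa, which modulates peptide loading, had 110 against 22.5 CPM. Of the 20 genes of 21 that reached the level, 1 was higher and 3 lower in every library.

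Secretory genes mostly showed no such difference, and survival genes were split. Among 29 secretory-pathway genes, 28 reached the level, 3 were at least 2-fold higher in every library, 0 were lower and 25 were neither. Xbp1, the factor behind endoplasmic reticulum expansion, had 272 against 79.1 CPM, Herpud1 398 against 122 CPM, Sec61b 925 against 402 CPM and Tram1 295 against 136 CPM. Of 9 survival genes, 4 were lower, 0 higher and 5 neither. Bcl2 had 15.9 against 383 CPM in all others and Bcl2a1b 7.94 against 213 CPM, while Mcl1 had 585 against 527 CPM and Bcl2l11, encoding the pro-death protein BIM, 295 against 188 CPM. Bcl2a1b shares long stretches with other Bcl2a1 genes, so its count is uncertain. The ubiquitous isoform Cox6a1, beside the muscle-type Cox6a2 of the gate, had 269 against 241 CPM.

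The GM-CSF receptor chains were unequal in these cells. Csf2rb, the common beta chain of the GM-CSF, IL-3 and IL-5 receptors, had 271 and 194 CPM in the Csf2-/- female and male libraries, against 173 and 223 CPM in the Csf2+/- libraries. Csf2rb2, the IL-3-specific beta chain of mice, had 196 and 148 CPM in Csf2-/-, against 158 and 181 CPM in Csf2+/- cells. Both overlapped between genotypes, and since the 2 genes are near-identical copies, reads may be split between them uncertainly. Pooled, Csf2rb had 212 CPM, against 108 CPM in cDC1 and 35.5 CPM in all others, and Csf2rb2 168 CPM, against 22.6 and 8.43 CPM.

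Csf2ra, the chain specific for GM-CSF, was low. It had 24.9 and 40.1 CPM in the Csf2-/- female and male libraries, against 35.2 and 21.2 CPM in the Csf2+/- libraries. Its pooled level was 31.7 CPM, against 115 CPM in cDC1, 162 CPM in cDC2, 190 CPM in Ly6c2 monocytes and 72.7 CPM in all others. In every library the plasmacytoid level lay below those of cDC1, cDC2 and Ly6c2 monocytes. Il3ra, the chain specific for IL-3, had 17.8 and 12.3 CPM in Csf2-/-, against 29.3 and 5.31 CPM in Csf2+/- cells.

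Flt3, the receptor of the main dendritic growth factor, had 164 and 160 CPM in the Csf2-/- female and male libraries, against 170 and 207 CPM in the Csf2+/- libraries. Pooled it had 172 CPM, against 135 CPM in cDC1, 64.5 CPM in cDC2 and 11.95 CPM in all others. Csf1r, the receptor of macrophage growth factor, had 11.5 against 256 CPM in all others. Cish, a feedback gene induced through STAT5, had 3.53 against 91.5 CPM.

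None of the receptor chains that could be tested passed the genotype test in the plasmacytoid cells, and Il3ra, with 20 UMIs, could not be tested. The log2 difference, Csf2-/- over Csf2+/-, was 0.24 ± 0.26 (SE) for Csf2rb, 0.02 ± 0.28 for Csf2rb2, 0.14 ± 0.59 for Csf2ra and -0.21 ± 0.27 for Flt3, with edgeR adjusted p between 0.924 and 0.997. Jak2, the kinase bound to the beta chain, had 171 and 114 CPM in Csf2-/-, against 79.2 and 84.9 CPM in Csf2+/- cells. The groups did not overlap, but the log2 difference of 0.79 ± 0.33 had an unadjusted edgeR p of 0.0225 and an adjusted p of 0.547. Stat3 and Stat5b differed by 0.08 and -0.13, and Stat5a had too few UMIs to be tested, at 28. In conventional cells Csf2rb had 89.2 and 71.5 CPM in Csf2-/- cDC1, against 147 and 124 CPM in Csf2+/- cDC1, and 70.5 and 84.0 CPM in Csf2-/- cDC2 against 122 and 125 CPM in Csf2+/- cDC2. Whether the genotype difference itself differed between these cells was not tested.

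**Figure D3:**
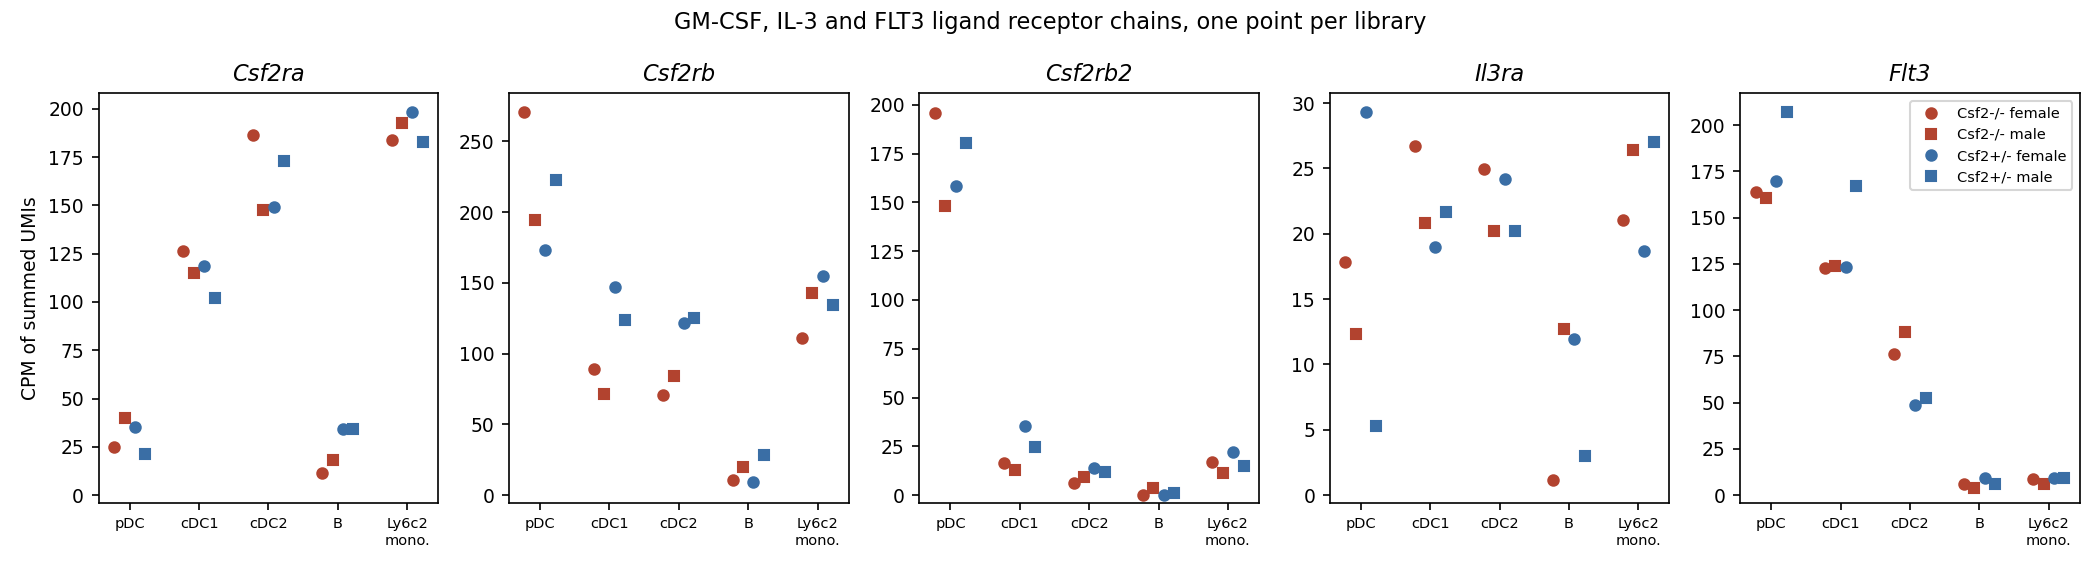
CPM of summed UMIs for Csf2ra, Csf2rb, Csf2rb2, Il3ra and Flt3 in 5 gated populations (pDC, plasmacytoid dendritic cells; mono., monocytes), with 1 point per library (red, Csf2-/-; blue, Csf2+/-; circles, female; squares, male). In plasmacytoid cells the genotypes overlap for the first 4 genes, and for Flt3 both Csf2+/- points lie above both Csf2-/- points, at 170 and 207 CPM.

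The members differed among themselves beyond counting error. For 952 genes with at least 200 UMIs, the variance of Pearson residuals, where 1 is counting error alone, had a median of 1.78 over the 88 cells not marked by Scrublet. It was 43.1 for Ccl4, 41.9 for Actb, 31.0 for Igkc, 27.7 for Ly6d, 27.1 for Ly6c2, 23.5 for Ifi27l2a and 18.7 for Cd74. Igkc had a UMI in 31 cells, and 97 of its 412 UMIs lay in 1 cell.

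Per cell the spread was wide. Ccl4 ran from 0 to 197 UMIs per 10000, with a median of 38.9. The library medians were 63.1 and 35.8 in the Csf2-/- female and male libraries, against 34.8 and 30.9 in the Csf2+/- libraries. Ly6d ran from 0 to 136 (median 21.9), Ly6c2 from 0 to 148 and Cd74 from 0 to 109 (median 32.7). H2-Aa was at 0 in 15 of 94 cells and reached 62.1 per 10000 in another. Siglech, which chose the cells, ran from 1.80 to 22.4, and Tcf4 from 5.66 to 68.5.

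Some of these genes moved together from cell to cell. Over the 94 cells, which share 4 libraries and their depth, Spearman's rho was 0.89 between Cd74 and H2-Aa, 0.48 between Ly6c2 and Ly6a, 0.49 between Tcf4 and Grm8 and 0.45 between Ly6d and Cox6a2. It was -0.41 between Ly6d and Cd209d, and 0.09 between Cd8a and Cd8b1. These are descriptions of single cells, with no test.

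**Figure D4:**
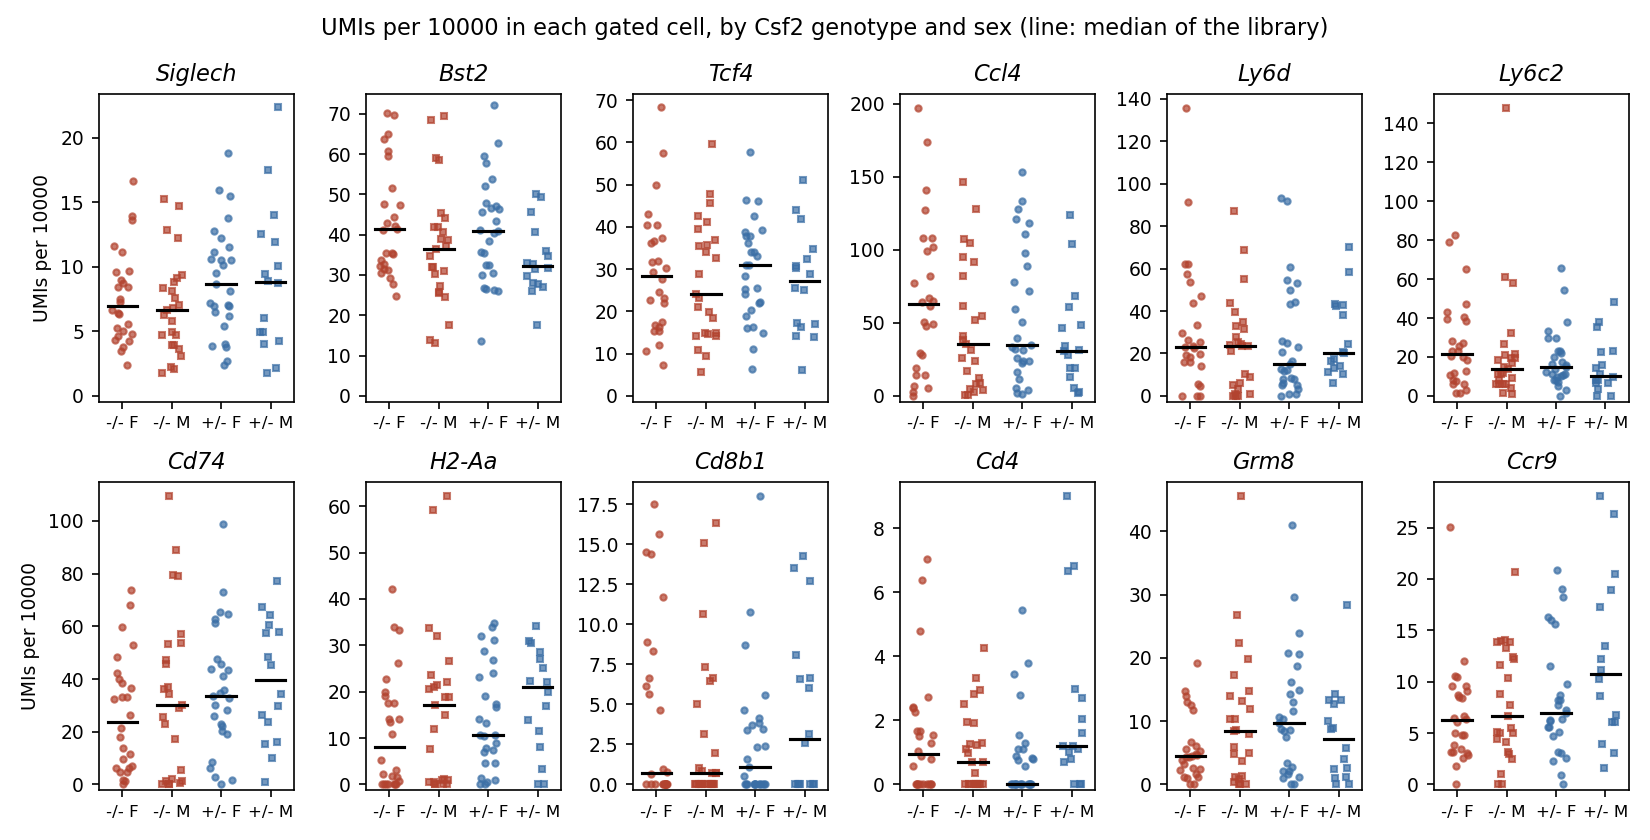
UMIs per 10000 of 12 genes in each of the 94 gated cells, by library (-/-, Csf2-/-; +/-, Csf2+/-; F, female; M, male), with the library median as a line. Ccl4, Ly6d, Ly6c2, Cd74 and H2-Aa are spread widely within every library, and every cell has Siglech, Bst2 and Tcf4, the first 2 by the rule that chose the cells.

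A few cells carried cycling transcripts. Mki67 and Top2a had 2 or more UMIs together in 6 of 94 cells (6.38%, exact 95% interval 2.38 to 13.4%). These were 1 cell in the Csf2-/- female, 4 in the Csf2-/- male, 1 in the Csf2+/- female and 0 in the Csf2+/- male library. Of the 6, 2 were Scrublet-marked, and 65.8% of all 73 Top2a UMIs lay in marked cells.

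Genotype was tested on the UMIs summed per library with edgeR's quasi-likelihood test across 4603 genes, with Benjamini-Hochberg adjustment. In plasmacytoid cells 8 genes were higher in Csf2-/- (0.174% of those tested) and 4 lower (0.0869%), while 335 had an unadjusted p under 0.05. For all 12 the libraries of the genotypes did not overlap. That adds nothing to the calls, since the same values gave the p-values, and the share over all tested genes was not computed. The number of calls depended on the settings. DESeq2 called 0 genes, and without the 6 Scrublet-marked cells 2 genes passed, Slfn5 and Crip1 (Crip1 is named after its value was seen). It was 70 with the Csf2-/- female library left out, 20 with the Csf2-/- male, 0 with the Csf2+/- female and 1 with the Csf2+/- male. Of the 12, 10 could be tested without the marked cells, and Tnfsf9 and Prickle1 could not. The share of each gene's UMIs in marked cells stands beside it below, with its value without them.

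Slfn5 and Mndal, both interferon-inducible, were among those higher in Csf2-/-. Slfn5, a Schlafen-family gene, had 92.7 and 86.4 CPM in the Csf2-/- female and male libraries, against 17.6 and 15.9 CPM in the Csf2+/- libraries. It was found in 18 of 51 Csf2-/- cells and 3 of 43 Csf2+/- cells, a log2 difference of 2.36 ± 0.47 (SE; edgeR adjusted p = 0.0105). Without marked cells it grew to 5.18 (edgeR adjusted p = 0.00275). Marked cells held 19.05% of the Slfn5 UMIs, and 8 of the 9 in Csf2+/- cells. Mndal, of the IFI200 family, had 303 and 235 CPM against 126 and 106 CPM, a log2 difference of 1.17 ± 0.27 (adjusted p = 0.043). Marked cells held 14.3% of its UMIs, and without them the log2 difference was 1.31 (adjusted p = 0.0698). The IFI200 genes are close copies of each other, so its count is uncertain.

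Immediate early genes, which dissociation is known to induce, were higher too. Fos had 1212 and 1327 CPM in the Csf2-/- female and male libraries, against 830 and 563 CPM in the Csf2+/- libraries, a log2 difference of 0.84 ± 0.16 (adjusted p = 0.0105). Egr1 had 196 and 244 CPM against 82.1 and 95.5 CPM, a log2 difference of 1.32 ± 0.30 (adjusted p = 0.0324). Marked cells held 18.5% of the Fos and 31.1% of the Egr1 UMIs. Without them the log2 differences were 0.53 (adjusted p = 0.524) and 0.58 (adjusted p = 0.787).

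Vim, an intermediate filament, had 652 and 1068 CPM in the Csf2-/- female and male libraries, against 414 and 393 CPM in the Csf2+/- libraries. Its log2 difference was 1.08 ± 0.20 (adjusted p = 0.0115). Lgals3, encoding galectin-3, had 207 and 247 CPM against 73.3 and 101 CPM, a log2 difference of 1.41 ± 0.30 (adjusted p = 0.0164). Both are abundant in macrophages and activated cells, and marked cells held 43.9% of the Vim and 41.2% of the Lgals3 UMIs. Without marked cells the log2 differences were 1.09 and 1.84, each with an edgeR adjusted p of 0.0698. Among cells with 0 C1q UMIs they were 0.24 and 0.82 (edgeR adjusted p = 0.977 and 0.743). In the Leiden cluster they were 0.53 and 0.71.

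The 2 largest log2 differences rested on few cells. Sct, the peptide hormone secretin, had 71.3 and 123 CPM in the Csf2-/- female and male libraries, against 0 and 5.31 CPM in the Csf2+/- libraries, a log2 difference of 5.39 ± 0.75 (adjusted p = 0.000109). Its 60 UMIs in Csf2-/- and 1 in Csf2+/- cells gave a depth-scaled ratio of 52.5, with an exact 95% counting interval of 9.07 to 2109. It was found in 9 of 51 Csf2-/- cells and 1 of 43 Csf2+/- cells, and 3 cells with 30, 15 and 8 UMIs held 86.9% of it. Tnfsf9, encoding the 4-1BB ligand, had 39.2 and 111 CPM against 5.87 and 0 CPM, a log2 difference of 4.19 ± 0.78 (adjusted p = 0.0105). Its 47 UMIs in Csf2-/- and 2 in Csf2+/- cells gave a ratio of 20.6 (5.39 to 175). The same cell of the Csf2-/- male library, with 31806 UMIs and a Scrublet mark, was the highest for both genes. Marked cells held 49.2% of the Sct and 57.1% of the Tnfsf9 UMIs, and without them Sct had a log2 difference of 4.44 (adjusted p = 0.0863).

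The 4 lower genes shared no listed group. Fyn, a Src-family kinase, had 891 and 916 CPM in the Csf2-/- female and male libraries, against 1293 and 1677 CPM in the Csf2+/- libraries, a log2 difference of -0.72 ± 0.14 (adjusted p = 0.0105). It was found in 50 of 51 Csf2-/- and all 43 Csf2+/- cells, and 5.29% of its UMIs lay in marked cells, without which it was -0.69 (adjusted p = 0.0698). Fam214a had 289 and 247 CPM against 584 and 457 CPM, and mt-Nd3, a mitochondrially encoded subunit of complex I, 185 and 136 against 305 and 441 CPM. Their log2 differences were -0.98 ± 0.21 and -1.20 ± 0.25 (adjusted p = 0.0164 and 0.0161). Marked cells held 2.24% of the Fam214a and 7.77% of the mt-Nd3 UMIs, and without them the log2 differences were -0.92 and -1.16, each with an adjusted p of 0.0698. Prickle1, a planar cell polarity gene, had 7.13 and 3.09 CPM against 52.8 and 95.5 CPM (log2 difference -3.72 ± 0.70, adjusted p = 0.00994), but 2 cells held 61.5% of its 39 UMIs, and marked cells held 17.9%. With 3 UMIs in Csf2-/- and 36 in Csf2+/- cells its ratio was 0.073 (exact 95% counting interval 0.0144 to 0.231).

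**Figure D5:**
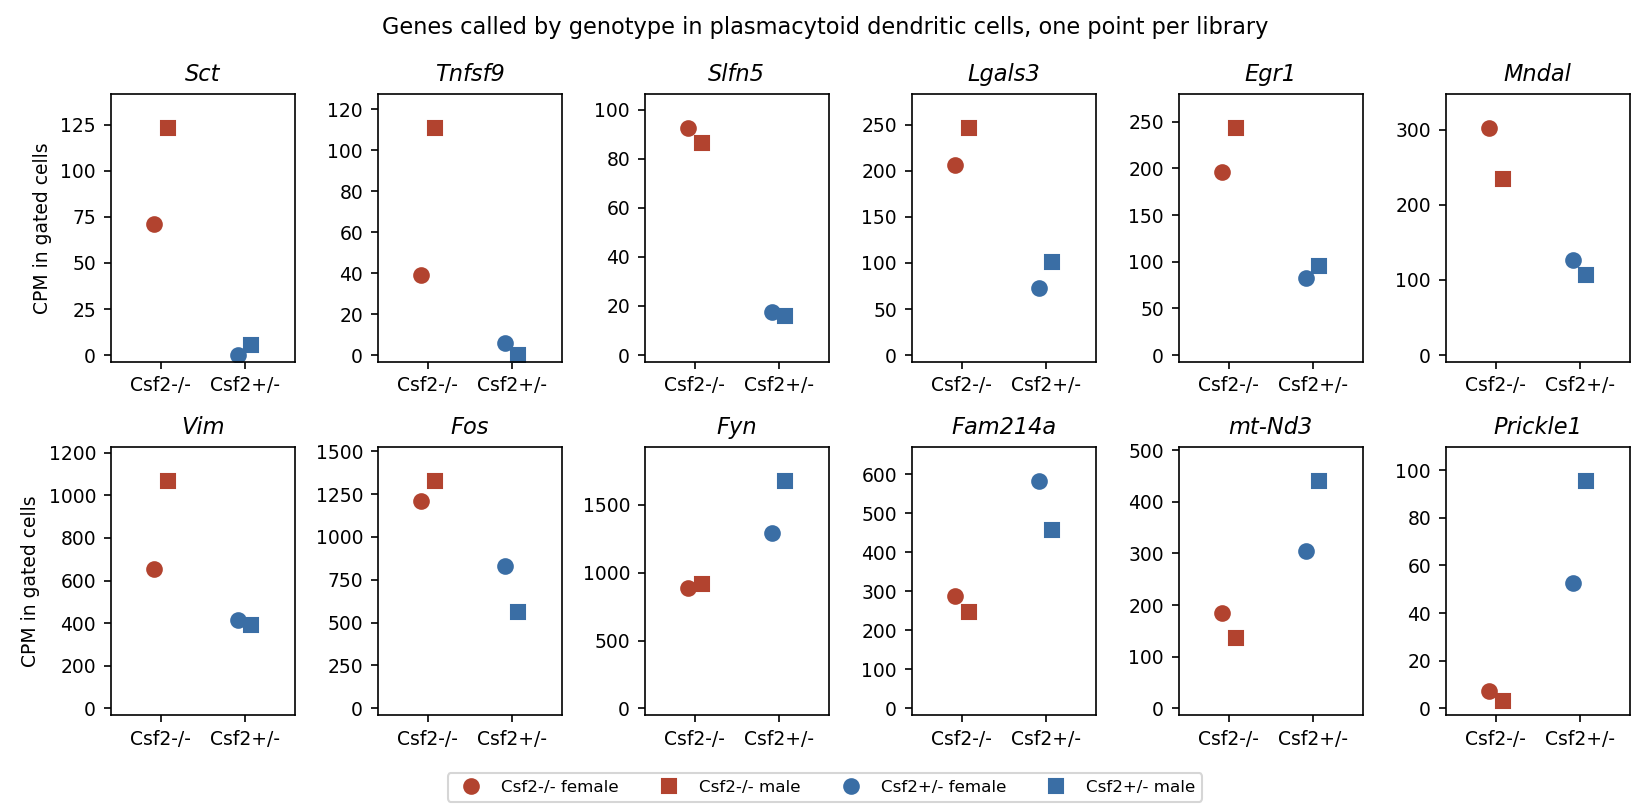
CPM of summed UMIs in the plasmacytoid cells for the 12 genes that passed the genotype test, with 1 point per library (red, Csf2-/-; blue, Csf2+/-; circles, female; squares, male). Both Csf2-/- points lie above both Csf2+/- points for Sct, Tnfsf9, Slfn5, Lgals3, Egr1, Mndal, Vim and Fos, and below them for Fyn, Fam214a, mt-Nd3 and Prickle1.

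By gene group, interferon-response genes had mostly positive log2 differences, with 1 call. Of 39 listed, 12 were tested, 11 had a log2 difference above 0 and Slfn5 alone passed, with 4 at an unadjusted p under 0.05. Their median log2 difference was 0.68, against 0.0013 over all tested genes. Of all 4603 tested genes, 2309 were above 0, 335 had an unadjusted edgeR p under 0.05 and 12 passed. Genes of a list may move together, and no list was tested as a set. Trim30a had 331 and 312 CPM in Csf2-/-, against 191 and 212 CPM in Csf2+/- cells, and Irf7 182 and 210 against 147 and 63.7 CPM. Isg15 had 178 and 58.6 CPM against 58.7 and 0 CPM, and the genotypes overlapped. The summed level of the list was 5006 and 5143 CPM in Csf2-/-, against 4261 and 3981 CPM in Csf2+/- cells.

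Mitochondrially encoded transcripts had negative log2 differences, again with 1 call. Of 13, 11 were tested, all 11 had a log2 difference below 0, mt-Nd3 alone passed and 9 had an unadjusted p under 0.05, with a median of -0.42. The 11 may move together, so their shared sign does not count as 11 separate results. Their sum was 22470 and 18420 CPM in the Csf2-/- female and male libraries, against 24280 and 29670 CPM in the Csf2+/- libraries. In all other kept cells of the same libraries the sum was 18220 and 19000 CPM in Csf2-/-, against 19840 and 21910 CPM in Csf2+/-. There too the genotypes did not overlap.

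Stress genes were mostly above 0. Of 20, 17 were tested, 14 were above 0 and 2 passed, Fos and Egr1, with 6 at an unadjusted p under 0.05 and a median of 0.24. Junb had 902 and 975 CPM in Csf2-/-, against 613 and 674 CPM in Csf2+/- cells. The list summed to 9193 and 9691 CPM in Csf2-/-, against 7622 and 7394 CPM in Csf2+/- plasmacytoid cells, and to 16470 and 16650 CPM against 14680 and 14320 CPM in all other cells. The part that handling of the glands played in these genes was not tested.

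Genes of plasmacytoid identity did not pass the test. Of 31 surface and secreted genes, all tested, 8 were above 0, 23 below and 0 passed, with 2 at an unadjusted p under 0.05 and a median of -0.15. Ly6c2 had 2576 and 2274 CPM in Csf2-/-, against 2020 and 1640 CPM in Csf2+/- cells (log2 difference 0.39 ± 0.11, adjusted p = 0.192). Of 14 transcription factors, 13 were tested, 7 were above 0 and 0 passed, with 1 at an unadjusted p under 0.05 and a median of 0.06.

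The remaining functional lists had 0 calls each. The number tested, those above 0 and the median log2 difference were 8, 5 and 0.44 for conventional dendritic genes, 16, 9 and 0.05 for sensing, and 4, 1 and -0.14 for interferon genes and receptors. For cytokines they were 5, 4 and 0.62, for homing receptors 11, 3 and -0.08, and for antigen presentation 13, 10 and 0.18. Growth factor receptors and STAT genes had 11, 7 and 0.08, survival genes 3, 2 and 0.22, and lymphoid genes 9, 3 and -0.05. Secretory genes had 28, 13 and -0.01, cytochrome c oxidase isoforms 7, 5 and 0.02, and proliferation genes 7, 7 and 0.77. These lists held 0 to 2 genes each at an unadjusted p under 0.05.

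Summed per list, markers of other cell types lay below their level in all other cells of the same library, except B cell markers in the Csf2-/- female library. They were not all low in themselves, since salivary epithelial genes stayed high in every library. Macrophage markers, limited through C1q by the gate, summed to 413 and 395 CPM in the Csf2-/- female and male libraries, against 358 and 669 CPM in the Csf2+/- libraries, with 4992 to 7723 CPM in all other cells. Adgre1, Mrc1 and Mertk had no UMI. B cell markers summed to 314 and 12.3 CPM in Csf2-/-, against 8.80 and 5.31 CPM in Csf2+/- cells. The first value, from the Csf2-/- female library, lay above the 111 CPM of all other cells there. It included the 36 Cd79a UMIs of the 2 cells named above, neither of them Scrublet-marked. T cell markers, of which the gate set Cd3d, Cd3e and Cd3g to 0, summed to 78.4 and 83.3 against 61.6 and 74.3 CPM, NK and ILC1 markers to 428 and 367 against 320 and 308 CPM, and ILC2 markers to 32.1 and 83.3 against 88.0 and 21.2 CPM. Neutrophil and eosinophil markers reached at most 7.13 CPM and red cell genes at most 3.09 CPM in any library. Salivary epithelial genes summed to 2095 and 771 against 1050 and 1630 CPM, with 3891 to 13830 CPM in all other cells. Of the tested members of these 8 lists 0 passed, and 2 epithelial genes had an unadjusted p under 0.05.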

How the data were processed

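Single-cell 3′ libraries of CD45+ salivary gland cells (1 female and 1 male per Csf2 genotype, 2 mice pooled in each) were analysed from the deposited matrices. These hold raw UMI counts per gene and barcode, made by the authors with Cell Ranger 7.0.0 on GRCm39 per the submitters' processing notes. A barcode was kept from 500 UMIs and 300 genes upward if mitochondrial transcripts were no more than 10% of it, which left 37644 of 39395. Marked doublets (Scrublet in scanpy 1.11.5, expected rate 0.008 per 1000 barcodes) stayed in. Clusters came from Leiden (leidenalg 0.10.2, 40 components of 3000 variable genes, 15 neighbours) and only checked the gate.

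Comparison gates required 0 Siglech and Cd3 UMIs and at most 10 C1q UMIs. cDC1 had at least 2 Xcr1 and Clec9a UMIs, cDC2 at least 2 Cd209a and 20 H2-Aa, H2-Ab1 and H2-Eb1, B cells at least 3 Cd79a and 1 of further B cell markers, and monocytes at least 3 Ly6c2, 1 Ccr2 and 3 Lyz2 with 0 Ncr1.

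UMIs were summed per library and tested with edgeR 4.0.16 (R 4.3.3): TMM, filterByExpr, robust quasi-likelihood, genotype as the only term, 2 residual degrees of freedom, adjusted p under 0.05. The SE is the log2 difference over the square root of F. Shares used scipy 1.17.1. The p-values rest on the spread between pooled libraries, but that spread was mostly shared over genes. The median prior was 37.2 degrees of freedom, against the 2 residual ones of each gene. With 51 and 43 cells, depth per sum was 188400 to 341006 UMIs. DESeq2 1.42.0 and other settings are compared at the end. The script was tested on simulated data.

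The members and lists were chosen with earlier results of these data known. Named genes were the gate and label markers, the 25 leading genes, up to 6 of each list by level plus any that passed, all 12 genotype genes, and the receptor chains with Flt3, Jak2, Stat3, Stat5a and Stat5b. Some genes that the rule would name are not reported here. Others, such as list members at 0, were chosen after their values were seen. Promoters came from a RefSeq table on GRCm38.p6, which matched 17 of the 25 leading genes.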

Additional observations from a re-analysis of the deposited data

Results flagged for a closer look

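The share of plasmacytoid cells went in opposite directions in the sexes. Between the female libraries the log2 ratio of Csf2-/- to Csf2+/- was -0.082, from 0.267% and 0.282% of kept barcodes. Between the male libraries it was 0.51, from 0.261% and 0.183%. With 1 library per sex and genotype the difference was not tested, and the exact binomial intervals of all 4 shares overlap.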

How the results depend on the processing

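The 12 genes that passed the genotype test kept their direction under every setting that still tested them. Their number depended on the setting. It was 12 with DESeq2-type size factors in edgeR (RLE). It was also 12 with Klk1 left out of the gate, with at least 1000 UMIs per cell and with at most 5% mitochondrial UMIs. The Klk1, UMI and mitochondrial settings kept the same 94 gated cells, so they could not change the calls and do not test them. DESeq2 itself gave 0 (57 genes at an unadjusted p under 0.05), no low-count filter gave 27, and no marked cells gave 2. Requiring 0 C1q UMIs gave 0 (225 unadjusted in edgeR) and at least 4 Siglech UMIs gave 0 (278 unadjusted). Leaving out 1 library gave 0 to 70 genes. The 70 came without the Csf2-/- female library and shared 11 of the 12, and 20 came without its male partner and shared 5. The Csf2+/- female library left out gave 0 (300 unadjusted), and the Csf2+/- male left out gave 1. The lone library is then assumed to vary like the pair. Of the settings chosen after seeing the data, the Leiden cluster in place of the gate gave 0 (255 unadjusted) and no Cd3 limit gave 12, of which 8 were shared. The cause was not tested in any of these.

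Over the tested genes as a whole, libraries of the same sex showed almost no shared deviation. The female minus male deviations of the genotypes correlated at 0.0172 over 4603 genes, and a replicate block by sex gave 20 genes, the 12 among them.

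The log2 ratio of the share was -0.10 to 0.53 when 1 library was left out, with 0.53 without the Csf2+/- female library, and 0.13 to 0.41 under the other settings. The share's sign turned without the Csf2+/- male library, at -0.10. Among the named genes, signs turned for receptor and STAT genes that never passed. With 1 library left out, Csf2ra ran from -0.11 to 0.62, Csf2rb from -0.018 to 0.49, Csf2rb2 from -0.20 to 0.23 and Stat5b from -0.67 to 0.40. In the cluster Csf2ra was -0.031, Csf2rb2 -0.073 and Stat3 -0.21. Stat3 was -0.063 with no Cd3 limit, and Stat5b was 0.011 at 0 C1q UMIs. Depth limits all of this, with 16 to 27 cells per library.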
